A study of Mus musculus with 10 samples.

Results

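The 9 genes described here are made by the luminal progenitor and alveolar cells of the mammary gland or carry their secreted products: Elf5, Ehf, Kit, Aldh1a3, Lcn2, Ltf, Trf, Mfge8 and Spp1. They were chosen by gene symbol from a list, and all 9 were found among the 53167 genes of the count table; all 9 passed the filter on low counts, as did 14415 genes in all. RNA came from cultured primary epithelial cells of wild-type mouse mammary gland, grown in serum-containing medium. In the BGN group (n = 5), biglycan, a matrix proteoglycan with leucine-rich repeats, was present as protein at 100 ng/mL, and the Control group (n = 5) had no added protein. Mouse strain and age, the length of stimulation and the source of the protein are not given in the labels. Nor is it stated if each replicate was an animal or culture of its own. The p-values here therefore measure only how these samples scatter, and that scatter may be technical.

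The inner, luminal layer of the mammary duct holds progenitors that form the milk-secreting alveolar cells of pregnancy and lactation. ELF5, an ETS transcription factor, directs that alveolar fate downstream of prolactin and STAT5, and the receptor tyrosine kinase KIT and the retinoic acid-forming dehydrogenase ALDH1A3 mark the progenitors. The same cells release proteins that guard the gland and its milk: lipocalin 2 (Lcn2) captures bacterial siderophores, lactoferrin (Ltf) and transferrin (Trf) bind iron, MFG-E8 (Mfge8) coats the milk fat globule and bridges dying cells to integrins, and osteopontin (Spp1) is an integrin- and CD44-binding phosphoprotein of matrix and milk.

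Libraries held 18292624 to 21820560 counted reads, and the ranges of the groups overlapped. Keratin markers of both epithelial layers were present in every library: basal Krt14 at no less than 3422 CPM (counts per 1e+06 reads, scaled between libraries by the TMM method), luminal Krt8 at no less than 854 CPM and Epcam at no less than 1080 CPM. Krt14 was the highest of the 10 basal genes that passed the filter, out of 12 listed. The contractile genes Acta2, Mylk and Tagln of that list were low, at 27.7, 3.94 and 1.34 CPM on average. Reads of mitochondrially encoded genes made up 1.16% of Control replicate 5 and 1.80% to 2.27% of each other library. That library and BGN replicate 5 stood apart in several of the values here, in opposite directions. For Kit and Spp1, each of the 2 lay closer to the mean CPM of replicates 1 to 4 of the opposite group than to that of its own. The same held for Trf and Mfge8, but there both lay beyond the range of all other libraries. Whether these 2 libraries carry the right labels was not tested, and every difference here takes them as labelled. Values without both are given beside those for all 10. The 2 were singled out partly by values of these same genes. A wider gap between the groups without them follows in part from that choice and is no separate support.

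The 9 genes were expressed in all 10 libraries and together took 0.674% to 0.884% of the reads. Per kilobase of transcript, the scale on which different genes can be compared, Lcn2 was highest at 2276 ± 114 CPM per kilobase (SD, n = 10 libraries). Spp1 followed at 910.5 ± 93.2, Trf at 503 ± 93.8 and Mfge8 at 486 ± 35.2 CPM per kilobase. Ltf stood at 168 ± 13.9, Ehf at 162 ± 4.71, Aldh1a3 at 119 ± 6.73, Elf5 at 108 ± 2.54 and Kit at 31.9 ± 2.51 CPM per kilobase. In this order the library ranges of Trf and Mfge8 overlapped, as did those of Ltf and Ehf and those of Aldh1a3 and Elf5, while every other pair of neighbours was separated in all libraries. By mean level the secreted products filled the first 5 places and the receptor Kit the last.

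**Figure D1:**
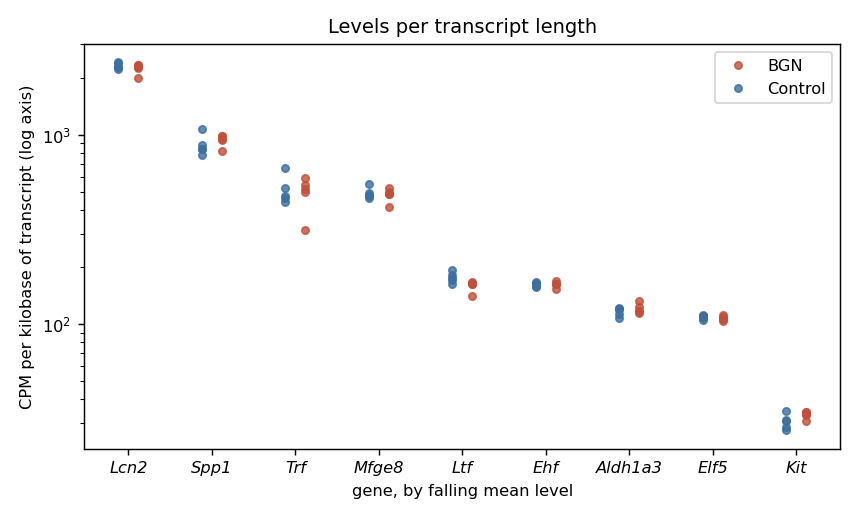
CPM per kilobase of the longest coding transcript (log axis) for each gene in the 5 Control and 5 BGN libraries, with 1 point per library. Lcn2, at 2276 CPM per kilobase on average, lies above all other genes, and Kit, at 31.9, below them.

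Promoters are shown for genes whose levels correlated across libraries, given further on: Kit with Spp1, and Mfge8 with Lcn2. The relation of Mfge8 with Lcn2 rests on the replicates numbered 5 and did not pass by Spearman's rho. Whether the promoters have a part in these relations was not tested. The RefSeq table of promoters (GRCm38.p6) held 6 of the 9 genes; Ehf, Aldh1a3 and Trf are not in it. The deposited counts were made on GRCm39, so these positions are those of the table's build alone. Each sequence is the 250 bases upstream of the first start listed: chr5:75574737-75574986 on the plus strand for Kit, chr5:104434861-104435110 on the plus strand for Spp1, chr7:79149061-79149310 on the minus strand for Mfge8 and chr2:32387740-32387989 on the minus strand for Lcn2. Capitals mark AGGAAG, the core bound by many ETS factors, the family of ELF5 and EHF, or its reverse complement CTTCCT.
Kit: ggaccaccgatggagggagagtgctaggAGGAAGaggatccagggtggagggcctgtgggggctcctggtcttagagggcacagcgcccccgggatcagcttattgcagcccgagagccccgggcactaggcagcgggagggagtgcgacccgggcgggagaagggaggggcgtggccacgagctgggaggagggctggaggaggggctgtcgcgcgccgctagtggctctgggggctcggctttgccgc
Spp1: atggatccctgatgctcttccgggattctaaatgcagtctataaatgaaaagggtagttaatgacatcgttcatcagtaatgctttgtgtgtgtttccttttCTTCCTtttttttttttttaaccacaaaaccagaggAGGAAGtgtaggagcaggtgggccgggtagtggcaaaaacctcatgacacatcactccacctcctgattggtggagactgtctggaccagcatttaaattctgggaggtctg
Mfge8: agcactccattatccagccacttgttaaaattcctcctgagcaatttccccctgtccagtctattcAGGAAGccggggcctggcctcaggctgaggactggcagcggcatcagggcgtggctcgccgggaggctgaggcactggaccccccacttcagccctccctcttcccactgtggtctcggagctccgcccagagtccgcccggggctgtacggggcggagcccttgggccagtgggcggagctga
Lcn2: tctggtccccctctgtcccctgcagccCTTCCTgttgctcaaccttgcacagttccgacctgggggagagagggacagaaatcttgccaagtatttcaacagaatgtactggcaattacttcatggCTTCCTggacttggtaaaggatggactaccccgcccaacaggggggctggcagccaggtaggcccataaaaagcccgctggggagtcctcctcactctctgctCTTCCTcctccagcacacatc
On either strand, AGGAAG occurred once each in the Kit and Mfge8 windows, at 222 and 184 bases upstream, in 2 places in the Spp1 window and in 3 in that of Lcn2. Of the 6 genes 5 held it upstream of the first listed start, Elf5 being the exception, and 29.5% of the 32851 promoter windows of the table did. The motif TTCNNNGAA, which STAT factors bind, was in none of the 9 windows of these genes and in 7.02% of all windows. These matches describe letters in the windows and were chosen as motifs after the values were known.

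Between BGN and Control, 0 of the 9 genes passed edgeR's quasi-likelihood test at a threshold of 0.05 after Benjamini-Hochberg adjustment over the 14415 genes, and the share of all genes that passed was 0%. The smallest adjusted p was 0.945 for these 9 and 0.883 for all genes. DESeq2 and limma-voom also called 0 genes. At an unadjusted p under 0.05 edgeR gave 2 of the 9, Ltf and Kit, against 4.81% of all genes tested (694 genes; 662 with DESeq2 and 808 with limma-voom). Estimates lay above 0 for 4 and below 0 for 5 of the 9, with 48.0% above 0 among all genes, and the median log2 fold change (BGN over Control) was -0.019 against -0.0040 for all genes. The widest 95% interval was that of Trf, from 0.714-fold to 1.29-fold. CPM of the groups overlapped for all 9, while 0.728% of all genes had no overlap.

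**Figure D2:**
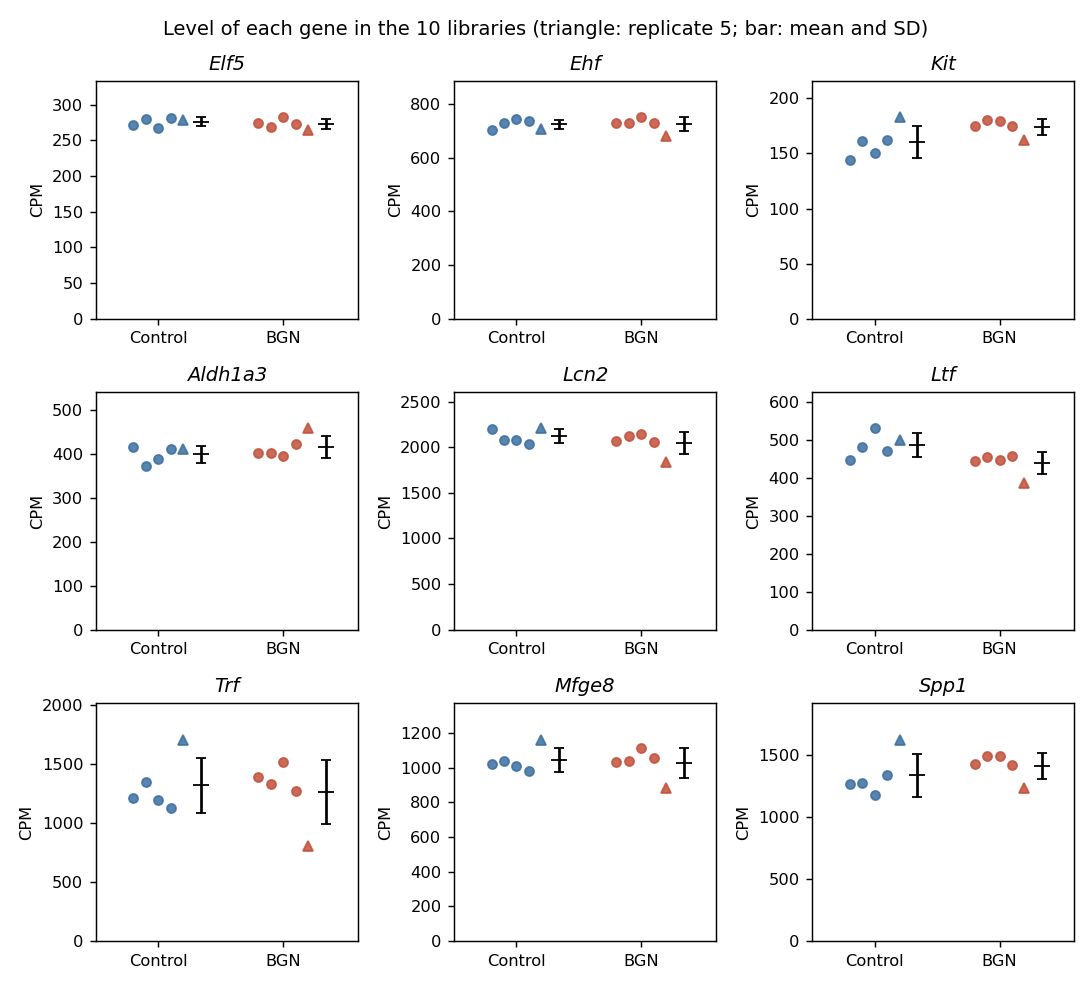
CPM of each gene in the Control and BGN libraries, with 1 point per library, a triangle for replicate 5 and the mean with its SD as a bar. The groups overlap for every gene, and the triangle of BGN lies below the other 4 BGN points in all panels except Aldh1a3.

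The transcription factors were the steadiest of the genes. Elf5 stood at 275, 269, 282, 272 and 264 CPM in BGN replicates 1 to 5 and at 272, 280.4, 267, 282 and 279 CPM in Control replicates 1 to 5. All libraries lay close together and the groups overlapped over most of their range. The log2 fold change was -0.019 ± 0.037 (SE; 95% interval -0.095 to 0.057; adjusted p = 0.986 by edgeR). The spread of Elf5 within groups was 2.38% of its mean, a coefficient of variation below that of all but 4.25% of the 1484 genes whose mean count was within 2-fold of its own (median 4.65%). Ehf, an epithelial ETS factor related to ELF5, averaged 725 ± 26.1 CPM with biglycan and 725 ± 17.9 CPM without (SD, n = 5 each, as for all group values), a log2 fold change of 0.00061 with an interval of -0.078 to 0.080. Its lowest value was 681 CPM in BGN replicate 5. Other ETS factor genes, from a list of 15, were tested in 14 cases: 11 estimates lay above and 3 below 0, none passed, and the median log2 fold change was 0.035. The highest counts among them were those of Etv6, at 317 CPM (BGN) and 307 CPM (Control), and Ets2, at 293 and 291 CPM.

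Kit, the receptor for stem cell factor, had higher estimates in BGN without passing the test. It stood at 175, 180.0, 179, 175 and 162 CPM in BGN replicates 1 to 5 and at 144, 161, 151, 162 and 183 CPM in Control replicates 1 to 5. In BGN the first 4 libraries lay within a few CPM of each other and replicate 5 lay lower, among the Control values, while Control replicate 5 was the highest library of all. The fold change was 1.09 (log2 0.12 ± 0.052 SE, 95% interval 0.011 to 0.23; unadjusted p = 0.0324, adjusted p = 0.945 by edgeR). Without Control replicate 1, the lowest, the log2 fold change was 0.083 (unadjusted p = 0.117 by edgeR). With all libraries under limma-voom with quality weights it was 0.16 (limma-voom unadjusted p = 0.00195, adjusted p = 0.819). Without both replicates numbered 5 it was 0.20: BGN averaged 177 ± 2.97 CPM and Control 154 ± 8.85 CPM (n = 4 each; edgeR unadjusted p = 9.2e-05, adjusted p = 0.140). There the groups did not overlap, as for 3.17% of all genes under that setting, of which 5.99% had an unadjusted p under 0.05. Both libraries left out lay toward the opposite group for Kit, so the gap and the p without them come partly from that choice. The ligand gene Kitl was at 159 ± 7.01 and 155 ± 10.6 CPM (log2 fold change 0.037). Of 14 listed genes of the ligand and the signalling chain of KIT, 13 were tested, 8 above and 5 below 0 with none passing (median 0.021); the adaptor gene Sos1 was at 88.5 ± 2.91 and 82.1 ± 5.26 CPM (0.11). Mast cells also carry KIT; the summed level of 9 mast cell markers was 0 to 0.297 CPM in BGN libraries and 0 to 0.378 CPM in Control libraries. Of those markers, 6 (Cpa3, Tpsb2, Tpsab1, Mcpt4, Fcer1a and Ms4a2) had 0 counts in all libraries, which allows up to 0.0153 CPM each (3 counts over all libraries, counting error only).

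Aldh1a3 stood at 402, 402, 396, 423 and 459 CPM in BGN replicates 1 to 5, and between 372 and 417 CPM in Control. It was the only one of the 9 genes whose highest value was in BGN replicate 5. The log2 fold change was 0.057 (95% interval -0.037 to 0.15, adjusted p = 0.963 by edgeR) and 0.021 without that library; it was 0.032 without Control replicate 2. In the retinoic acid pathway, 13 of 18 listed genes were tested, 6 above and 7 below 0 with none passing (median -0.014). Rarb, a retinoic acid receptor gene that responds to its own ligand, was low, averaging 3.10 ± 0.581 CPM with biglycan and 2.29 ± 0.642 CPM without (log2 fold change 0.44, adjusted p = 0.945 by edgeR). Crabp2 was at 174 ± 9.62 and 189 ± 18.3 CPM (-0.11).

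Lcn2, among the 15 genes with the highest CPM in these libraries, stood at 2073, 2125, 2141, 2055 and 1835 CPM in BGN replicates 1 to 5. In Control replicates 1 to 5 it was at 2194, 2082, 2083, 2034 and 2206 CPM. BGN replicate 5 was below all other libraries, which lay within 2034 to 2206 CPM. The log2 fold change was -0.051 ± 0.043 (SE; adjusted p = 0.963 by edgeR), and -0.013 without BGN replicate 5. Lcn2 is induced through NF-kappaB and STAT3; in a list of 15 genes of these pathways and their feedback, 14 were tested, 8 above and 6 below 0 with none passing (median 0.023). Stat3 averaged 695 ± 10.3 CPM with biglycan and 681 ± 31.4 CPM without (0.030), and Il6st, the shared receptor chain of the IL-6 family, at 321 ± 8.79 and 299 ± 15.4 CPM (0.10).

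Ltf had the smallest unadjusted p of the 9 genes. It stood at 444, 455, 447, 457 and 387 CPM in BGN replicates 1 to 5 and at 446, 480.5, 530.3, 471 and 501 CPM in Control replicates 1 to 5. Of the Control libraries, 4 lay above all BGN libraries, and Control replicate 1 lay among the BGN values. The fold change was 0.902 (log2 -0.15 ± 0.050 SE, 95% interval -0.25 to -0.046; unadjusted p = 0.00658, adjusted p = 0.945 by edgeR). Without BGN replicate 5 it was -0.11 on the log2 scale, and without both replicates numbered 5 -0.096 (unadjusted p = 0.0366, adjusted p = 0.796 by edgeR). Other secreted defence and acute phase genes numbered 25, of which 19 were tested, 12 above and 7 below 0 with none passing (median 0.010). The most abundant were Chil1, a chitinase-like protein gene, at 2029 ± 126 and 1986 ± 144 CPM, the copper oxidase gene Cp at 1977 ± 77.8 and 2002 ± 121 CPM, and complement C3 at 613 ± 38.2 and 604 ± 29.8 CPM. Wfdc2 averaged 40.3 ± 4.46 CPM in the BGN libraries and 46.1 ± 4.41 CPM in the others (log2 fold change -0.20). Neutrophils also make lactoferrin and lipocalin 2; 12 neutrophil markers summed to 3.65 to 5.13 CPM in BGN and 3.17 to 5.03 CPM in Control libraries, most of it S100a8 at 3.24 CPM, with Csf3r, Cxcr2, Mpo, Ly6g and Retnlg at 0 counts in all libraries.

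Trf varied most. It stood at 1395, 1332, 1521, 1278 and 804 CPM in BGN replicates 1 to 5 and at 1218, 1354, 1195, 1129 and 1711 CPM in Control replicates 1 to 5. The extremes were replicate 5 of each group, BGN at the bottom and Control at the top, 2.13-fold apart. Its spread within groups was 19.6% of the mean, above that of 97.2% of the 144 genes of similar count. The log2 fold change was -0.061 with a 95% interval of -0.49 to 0.36 (adjusted p = 0.988 by edgeR), which turned to 0.066 without BGN replicate 5, to 0.049 without Control replicate 5 and to 0.18 without both (unadjusted p = 0.0124, adjusted p = 0.771 by edgeR). Of 17 listed genes of iron handling and of receptors for these carriers, 14 were tested, 10 above and 4 below 0 with none passing (median 0.036). Of the ferritin genes, Ftl1 averaged 645 ± 35.9 CPM with biglycan and 655 ± 19.1 CPM without, and Fth1 559.5 ± 29.1 and 579 ± 26.9 CPM. Slc40a1, the iron exporter ferroportin, was at 90.8 ± 2.85 and 86.0 ± 3.52 CPM (log2 fold change 0.078).

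Mfge8 had the same libraries at its extremes as Trf, over a narrower range. It stood at 1033, 1038, 1115, 1055 and 881 CPM in BGN replicates 1 to 5 and at 1021, 1041, 1009, 980.2 and 1162 CPM in Control replicates 1 to 5. Again BGN replicate 5 was lowest and Control replicate 5 highest. The log2 fold change was -0.026 (95% interval -0.14 to 0.092, adjusted p = 0.986 by edgeR), 0.025 without BGN replicate 5, 0.017 without Control replicate 5 and 0.067 without both.

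Spp1 stood at 1427, 1489, 1493, 1413 and 1233 CPM in BGN replicates 1 to 5 and at 1262, 1274, 1173, 1336 and 1621 CPM in Control replicates 1 to 5. As for Kit, BGN replicate 5 lay within the range of Control replicates 1 to 4 and Control replicate 5 lay above every BGN library. The log2 fold change was 0.082 ± 0.083 (SE; 95% interval -0.10 to 0.27; adjusted p = 0.973 by edgeR). It was 0.038 without Control replicate 3, 0.13 without BGN replicate 5 and 0.16 without Control replicate 5. With all libraries under limma-voom with quality weights it was 0.16 (limma-voom unadjusted p = 0.00897, adjusted p = 0.819). Without both replicates numbered 5 it was 0.21: BGN averaged 1454 ± 42.5 CPM and Control 1258 ± 67.7 CPM (n = 4 each, no overlap, edgeR unadjusted p = 2.9e-05, adjusted p = 0.140). Here too both libraries left out lay toward the opposite group, so the gap and the p without them come partly from that choice. The receptor genes of osteopontin and MFG-E8 were tested in 9 of 10 cases, 6 above and 3 below 0 with none passing (median 0.047). Among them were Itgb1 at 1092 ± 17.3 and 1082 ± 12.2 CPM, Cd44 at 677 ± 17.9 and 627 ± 23.2 CPM (log2 fold change 0.11) and Itgav at 336 ± 23.1 and 305 ± 16.0 CPM (0.14). Macrophages also make both products. The 12 macrophage markers summed to 2.89 to 4.46 CPM in BGN and 3.09 to 4.82 CPM in Control libraries. Most of it was Cd68 at 1.65 CPM and Csf1r at 1.26 CPM on average, while Adgre1, C1qa, C1qb and Tyrobp had 0 counts in all libraries.

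**Figure D3:**
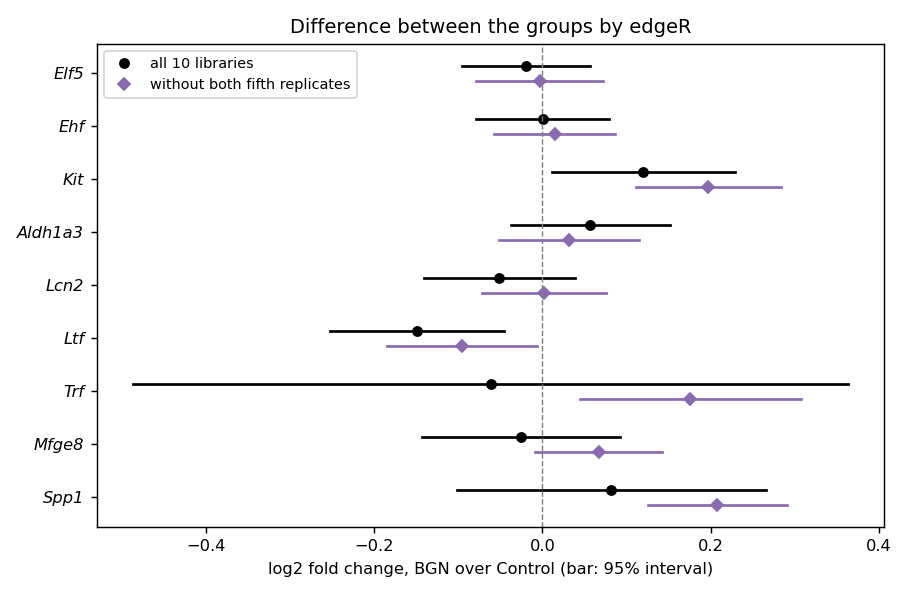
Log2 fold change of each gene, BGN over Control, with its 95% interval by edgeR, for all 10 libraries (circles) and without both replicates numbered 5 (diamonds). The interval of Trf is the widest with all libraries, and without both replicates numbered 5 those of Kit and Spp1 (adjusted p = 0.140 each) and Trf (0.771) lie above 0 and that of Ltf (0.796) below 0. For Kit, Spp1 and Trf those replicates lay toward or beyond the opposite group, so the shifts come partly from leaving them out.

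The neighbouring programmes of the mammary epithelium were read from the same fit. Of 20 further genes of luminal progenitors and the alveolar lineage, 19 were tested, 10 above and 9 below 0 with none passing. The median log2 fold change was 0.0027, and 0.055 without both replicates numbered 5. Runx1, a transcription factor of mammary epithelium, was at 563 ± 23.0 and 518 ± 25.1 CPM (0.12, adjusted p = 0.945), and Cd14, a luminal progenitor surface marker, at 403 ± 15.9 and 402 ± 26.8 CPM. Milk and secretion genes numbered 16, of which 13 were tested, 5 above and 8 below 0 (median -0.038). That median turned to 0.061 without BGN replicate 5, to 0.035, 0.0097 and 0.023 without Control replicate 1, 2 or 3, and to 0.044 without both replicates numbered 5. Csn3 was at 1113 ± 47.4 and 1123 ± 231 CPM and Csn1s1 at 365 ± 14.2 and 346 ± 21.6 CPM. Other milk protein genes of that list were low, with Csn2 at 6.57, Lalba at 1.28 and Csn1s2a at 0.516 CPM on average. Hormone-sensing luminal genes split 4 above and 7 below 0 (median -0.011), with Gata3 at 149.8 ± 2.30 and 149.9 ± 4.51 CPM and Foxa1 at 19.0 ± 1.39 and 16.7 ± 1.71 CPM. Of 12 basal genes 10 were tested, 5 above and 5 below 0 (median -0.0020). Luminal keratin and junction genes split 1 above and 8 below 0 (median -0.063, and -0.021 without both replicates numbered 5), with Krt7 at 271 ± 6.85 and 292 ± 14.8 CPM (log2 fold change -0.11). None of these genes passed. Of the 12 lists of further genes given here and above, 6 kept the sign of their median under all 20 alternatives: luminal keratin and junction, NF-kappaB and STAT3, KIT signalling, ETS factors, iron handling and receptors. The other 6 medians turned sign when 1 library or another was left out. The median of all genes tested, -0.0040, also kept its sign under all 20. The alternatives reuse the same libraries, so a kept sign is no separate support for a shift. Without both replicates numbered 5, the medians were 0.012 for hormone-sensing, 0.025 for basal, 0.0089 for retinoic acid, 0.075 for secreted defence, 0.0094 for ETS factor, 0.057 for iron handling and 0.063 for receptor genes. They were 0.024 for KIT signalling and 0.019 for the NF-kappaB and STAT3 genes. In bulk RNA, fewer cells of a type and less RNA per cell cannot be told apart.

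Across the 10 libraries some of the genes varied together. All 36 pairs were compared on log2 CPM by permutation tests with 100000 resamples, adjusted by Benjamini-Hochberg over the pairs, and 28 correlations were above and 8 below 0. By Pearson's r 3 pairs passed an adjusted p under 0.05, and by Spearman's rho 2 of those passed. The share of pairs among all genes with correlations this high was not computed. Genes outside the set also reached such values with its members, as given further on. Whether varying together is particular to the genes described here was therefore not tested. Trf and Mfge8 had a Pearson r of 0.977 (permutation p = 6.0e-05, adjusted p = 0.00216) and a Spearman rho of 0.891 (permutation p = 0.00115, adjusted p = 0.0207). Without the 2 libraries farthest from the median of Trf, which were the replicates numbered 5, r was 0.895, and with group means removed it was 0.977. Kit and Spp1 had an r of 0.887 (permutation p = 0.00112, adjusted p = 0.0202) and a rho of 0.915 (permutation p = 0.00053, adjusted p = 0.0191). There r was 0.948 without the 2 libraries farthest on Kit, Control replicates 1 and 3, 0.852 without the 2 farthest on Spp1, Control replicates 3 and 5, and 0.905 with group means removed. Lcn2 and Mfge8 had an r of 0.860 (permutation p = 0.00366, adjusted p = 0.0439) but a rho of 0.600 (adjusted p = 0.336). Without the replicates numbered 5 r was 0.374, so the relation of Lcn2 and Mfge8 rests on those 2 libraries. With only the other 8 libraries no pair passed: the adjusted p of Trf with Mfge8 and of Kit with Spp1 was 0.0562 each by permutation, at r of 0.895 and 0.912.

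**Figure D4:**
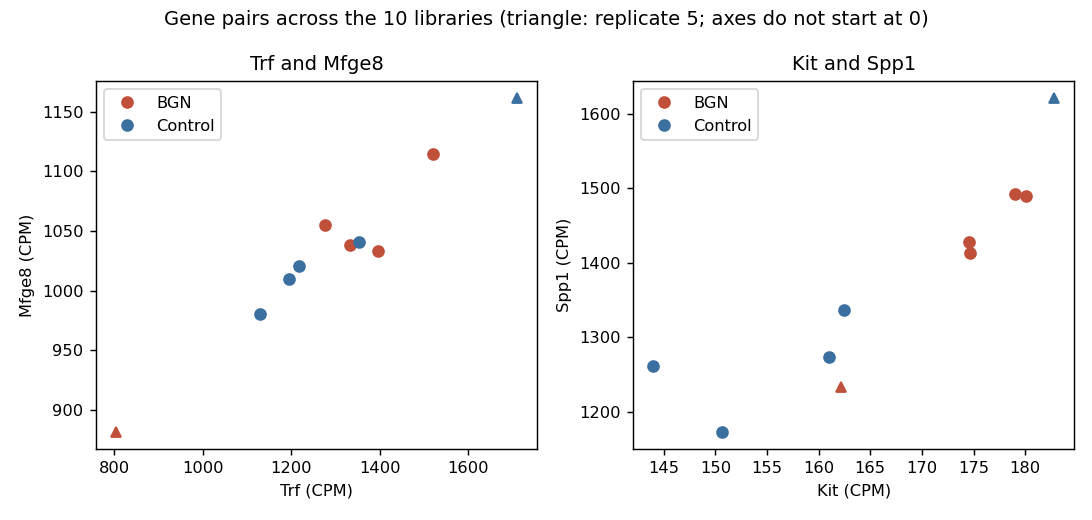
CPM of Mfge8 against Trf and of Spp1 against Kit, with 1 point per library, coloured by group and with a triangle for replicate 5. Trf and Mfge8 both run from BGN replicate 5 (804 and 881 CPM) up to Control replicate 5 (1711 and 1162 CPM), and Control replicate 5 is also highest for Kit and Spp1.

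Of the libraries at the ends of these relations, Control replicate 5 also had the lowest mitochondrial share and the highest fibroblast marker sum. By Dixon's criterion, used further on, that sum was not an outlier among the Control libraries. BGN replicate 5 was at neither extreme, with a mitochondrial share of 2.18%. The mean deviation of the 9 genes from their own means sums up the same values. On the log2 scale it was -0.16 in BGN replicate 5 and 0.13 in Control replicate 5, and between -0.043 and 0.073 in the other 8 libraries. The summed level of 10 fibroblast markers, mostly Pdgfra, was 59.8 CPM in Control replicate 5 and 47.2 CPM in BGN replicate 5, against 40.6 to 52.7 CPM in the other 8 libraries. Pdgfra averaged 38.7 CPM and the next marker, Col1a1, 4.42 CPM, while Dpt had 0 counts in all libraries. The sum is thus mainly a Pdgfra value. Adipocyte markers, mostly Pparg, summed to 19.8 and 15.5 CPM in those libraries, within or near the range of 13.9 to 19.8 CPM in the others. Endothelial markers summed to 7.29 to 9.13 CPM and lymphocyte markers to at most 0.109 CPM in any library. The part of these measures, and of the mitochondrial share, in the levels of the 9 genes was not tested.

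**Figure D5:**
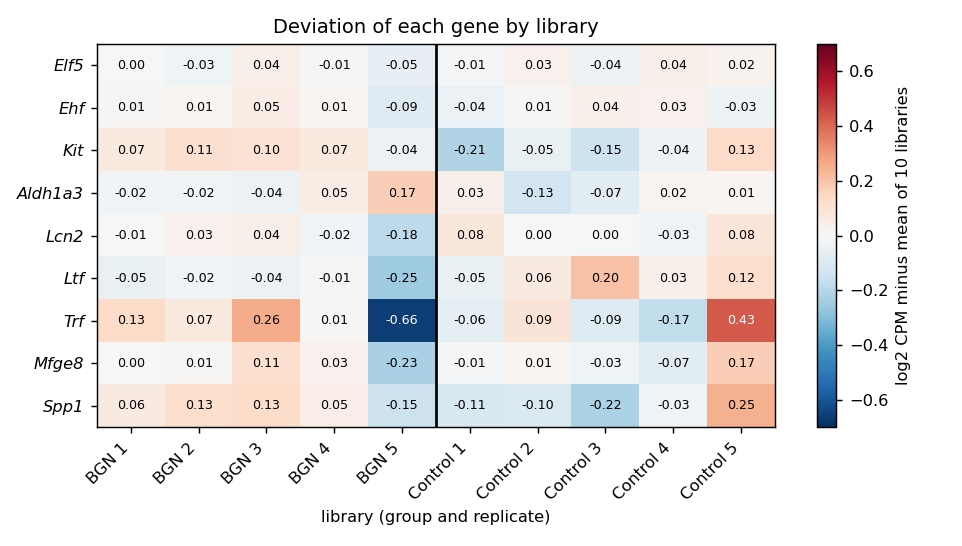
Log2 CPM of each gene minus its mean over the 10 libraries, by library, on a colour scale from blue (lower) to red (higher). The columns of BGN replicate 5 and Control replicate 5 hold the extremes of Trf, at -0.66 and 0.43.

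The genes with the most similar profile across the 10 libraries were taken from 11964 candidates with a mean of at least 50 counts, by Pearson's r of log2 CPM, as a description with no test. Igfbp4, which encodes a binding protein of insulin-like growth factors, and the cytochrome P450 gene Cyp2f2 were in the first 3 for both Trf (0.988 and 0.985) and Mfge8 (0.972 and 0.959). Igfbp4 ran from 170.1 CPM in BGN replicate 5 to 256 CPM in Control replicate 5. Aldh3b2, an aldehyde dehydrogenase gene, was in the first 3 for both Kit (0.945) and Spp1 (0.953), and Chil1 was nearest to Spp1 (0.960). Lcn2 was nearest to the keratin gene Krt16 (0.956), which stood at 12.5 CPM in BGN replicate 5 and at 17.6 to 22.8 CPM elsewhere, and Krt17 had 0.922. Aldh1a3 was nearest to Id3, an inhibitor of helix-loop-helix factors (0.959), at 74.7 CPM in BGN replicate 5 and 40.7 to 54.9 CPM elsewhere. For Ehf the nearest was Acsl4 (0.959), for Elf5 Cln8 (0.942) and for Ltf Map10 (0.887).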

How the data were processed

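Poly-A selected RNA of 10 samples was sequenced. The authors deposited unnormalized read counts for each gene symbol and sample. Per the submitters' processing notes the build was GRCm39, and the tools include HTSeq, HISAT2 2.2.1, DESeq2, FastQC and cutadapt 1.9.1. For the annotation release and the strand setting, the sources used here give nothing, so reads of overlapping or antisense genes may not be separable. Titles gave each sample's group and number. All libraries differed by more than sampling noise (chi-square per degree of freedom 2.43 to 18.1 within groups).

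After filterByExpr (minimum count 10) and TMM scaling, 14415 genes entered edgeR's robust quasi-likelihood fit (edgeR 4.0.16 in R 4.3.3). Treatment was its only term, and p-values were adjusted by Benjamini-Hochberg. Each SE is the log2 fold change divided by the root of F. Log2 CPM used a prior count of 2. Marker sums were scaled by library totals alone. Transcript length was that of the longest coding transcript in GENCODE M21. The steps were tested on simulated data. Alternatives were DESeq2 1.42.0, limma-voom with quality weights (limma 3.58.1), 3 other scalings, 2 other filters, no robust estimation, a replicate block and leaving out libraries. The genes described and all lists were chosen with earlier results of these data known. In each list the named genes were up to 3 of highest level and up to 2 of smallest p, of which the text gives some, together with the 9 genes themselves, up to 3 most similar profiles each, the top markers of other cell types and keratin and Epcam checks.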

Additional observations from a re-analysis of the deposited data

Results flagged for a closer look

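Values that stood apart from their own group were found in 3 of 32 sets of 5 libraries tested by Dixon's criterion, 2 of them among the 18 sets of the 9 genes; chance alone marks about 1 in 20 sets. In BGN, Lcn2 was at 1835 CPM in replicate 5 and no lower than 2055 CPM in the others. In BGN, Ltf was at 387 CPM in replicate 5 and no lower than 444 CPM in the others. The sum of fibroblast markers was 52.7 CPM in BGN replicate 2 and at most 47.6 CPM in the other BGN libraries.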

How the results depend on the processing

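Under 20 alternatives none of the 9 genes passed the threshold. Over all genes 0 passed under every alternative except with no filter on low counts, where 3 did, among them Oas3 (-0.88) and Kctd12 (0.24), named after their values were seen, and none of the 9. Estimates of Elf5, Kit, Aldh1a3, Ltf and Spp1 kept their sign under all 20. That of Ehf, near 0, turned to -0.00086 with upper-quartile scaling and -0.0038 with library totals only, and ran from -0.013 to 0.024 without single libraries. Trf turned to 0.053 and Mfge8 to 0.019 with limma-voom; without single libraries they ran from -0.14 to 0.066 and from -0.058 to 0.025. Without both replicates numbered 5 Lcn2 was at 0.0015 (-0.068 to -0.013 without single libraries), Trf at 0.18 and Mfge8 at 0.067. The cause of these turns was not tested. Of the 36 pairs, 5 passed with library totals only, 0 without both replicates numbered 5, where fewer libraries enter the test, and 1 to 4 without single libraries (1 without Control replicate 3 or 5), an alternative chosen after seeing the data. The labels do not say if same-numbered samples are paired. Their deviations correlated at -0.020 to 0.20, and 1 of 5 BGN libraries correlated best with its own number. Whether they share an animal, a culture or a day was not tested. With the replicate number as a block 0 genes passed (825 at an unadjusted p under 0.05, smallest adjusted p = 0.238 by edgeR).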
